A study of Mus musculus with 32 samples.

Results

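The 10 transcription factors that set photoreceptor fate in the retina, *Otx2*, *Crx*, *Nrl*, *Nr2e3*, *Neurod1*, *Prdm1*, *Rax*, *Rorb*, *Thrb* and *Rxrg*, were followed through biopsies of 14 mouse brain tumors. They were taken by name, as the rows of the tumor count table whose Ensembl identifiers carry these symbols, and all 10 were found among 37310 genes and passed the filter on low counts that left 21024 genes. All 10 were transcribed in both tumor models. *Otx2*, *Crx*, *Neurod1*, *Rorb* and *Thrb* were abundant, with medians between 200.4 and 555 CPM (read counts scaled to library size) in either model, whereas *Nr2e3* had a median of 2.84 CPM in GMYC and 13.5 CPM in GTML tumors. None of the 10 passed the thresholds for a difference between the models (log2 fold change beyond 1 in either direction, at an adjusted p below 0.01), against 3.22% of all genes tested. Several factors, *Nrl* and *Nr2e3* foremost, ranged widely between tumors of the same model.

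In the developing retina OTX2 is the homeodomain protein that commits progenitors to the photoreceptor lineage, and it turns on its relative CRX, which drives most rod and cone genes. The bZIP protein NRL and its target NR2E3, an orphan nuclear receptor, make the rod choice and keep cone genes off. RORB acts upstream of NRL, and the thyroid hormone receptor THRB and the retinoid X receptor RXRG set the cone opsin pattern. NEUROD1 is a bHLH factor of photoreceptor and granule neuron differentiation, PRDM1 protects photoreceptor precursors from the bipolar cell fate, and RAX is an early eye field and photoreceptor homeodomain factor. Several of these genes, OTX2, CRX and NRL among them, are known to be expressed in Group 3 medulloblastoma, a tumor of the cerebellum.

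GMYC tumors (6 samples) carried the Glt1-tTA and TRE-MYC transgenes. The tTA transactivator, expressed from the promoter of the glial glutamate transporter Glt1 (*Slc1a2*), turned MYC on unless doxycycline was given. GTML tumors (8 samples) came from the corresponding model with a MYCN transgene, so both groups share the Glt1-tTA driver and differ in the MYC family gene. The paper gives FVB/N as the background of all its transgenic crosses, so both models share it, and the GMYC mice were hemizygous for both transgenes. The labels call each sample a brain tumor biopsy and give neither age nor sex, and no normal cerebellum or retina was among the samples compared here, so levels are set between the models only. Nothing in the labels states that each biopsy came from a separate mouse, and p-values measure the spread between these samples.

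Total counts lay between 6218378 and 7279811 in GMYC tumors and between 4602294 and 6317404 in GTML tumors. The counts of mouse *Myc* and *Mycn* matched the labels, since *Myc* ranged from 33.4 to 166 CPM in GMYC and from 2.60 to 8.68 CPM in GTML tumors, and *Mycn* from 7.65 to 34.4 CPM and from 119 to 191 CPM, respectively. The paper calls the MYC transgene human, and reads were aligned to the mouse genome. Reads of transgene and mouse gene cannot be told apart in these counts. A pair of GTML libraries stood apart in what follows. GTML 2 had the most *Gli1*, a target of SHH signaling, at 14.1 CPM against at most 3.58 CPM elsewhere, and GTML 3 had the highest summed rod genes, at 2532 CPM against at most 1134 CPM elsewhere. The paper describes a GTML tumor with an SHH-like signature and compared the models without it. Its text does not number that tumor, and all tumors are kept here. Values without GTML 2 or GTML 3 are given beside the results that they move most. Y-linked genes summed to between 1102 and 3378 counts in all 6 GMYC tumors and in GTML 1, 4, 6 and 7, and to between 4 and 16 counts in GTML 2, 3, 5 and 8, so a low Y-linked count was seen in GTML tumors alone. The term for Y-linked counts used below splits the tumors into these high and low groups. With it, the model difference is that of GTML 1, 4, 6 and 7 against the GMYC tumors, and GTML 2, 3, 5 and 8 do not enter it. Small nucleolar RNAs took above 0.3% of the counts in GMYC 1 to 4 and GTML 1 and 2 and less in the other 8 tumors, a split seen in the counts and not named by the labels.

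The promoters of 9 of the 10 genes were found in a RefSeq table of the GRCm38.p6 assembly, as 15 windows of 300 bases around an annotated start site. *Rax* had no entry. The windows of *Crx*, *Nrl*, *Nr2e3* and *Thrb* (of which the window listed as number 1 of 2 is shown) are printed as examples of a homeodomain factor, the rod pair and a cone receptor. Capitals mark, on either strand, the core TAATCC bound by OTX2 and CRX, the NRL and MAF element TGCTGA, the nuclear receptor hexamer AGGTCA and the bHLH E-box CAGATG, and no matches overlap in these windows.
Crx (chr7:15879906-15880205, minus strand): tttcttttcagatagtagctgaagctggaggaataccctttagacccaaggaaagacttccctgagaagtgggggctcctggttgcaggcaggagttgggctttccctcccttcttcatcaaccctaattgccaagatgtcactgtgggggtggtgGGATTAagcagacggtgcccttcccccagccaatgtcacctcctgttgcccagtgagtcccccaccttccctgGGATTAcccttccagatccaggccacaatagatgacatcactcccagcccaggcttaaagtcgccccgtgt
Nrl (chr14:55524203-55524502, minus strand): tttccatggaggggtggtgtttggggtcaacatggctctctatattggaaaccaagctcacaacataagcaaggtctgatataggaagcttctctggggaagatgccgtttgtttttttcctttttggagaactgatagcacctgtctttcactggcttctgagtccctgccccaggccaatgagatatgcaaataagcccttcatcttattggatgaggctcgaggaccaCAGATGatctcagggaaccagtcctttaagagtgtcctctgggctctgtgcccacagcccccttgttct
Nr2e3 (chr9:59950030-59950329, minus strand): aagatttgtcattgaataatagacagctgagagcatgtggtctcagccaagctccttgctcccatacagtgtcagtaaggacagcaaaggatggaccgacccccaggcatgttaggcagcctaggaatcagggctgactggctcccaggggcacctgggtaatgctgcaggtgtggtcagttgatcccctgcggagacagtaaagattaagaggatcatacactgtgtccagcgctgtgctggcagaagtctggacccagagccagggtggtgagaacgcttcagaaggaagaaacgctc
Thrb (chr14:17660710-17661009, plus strand): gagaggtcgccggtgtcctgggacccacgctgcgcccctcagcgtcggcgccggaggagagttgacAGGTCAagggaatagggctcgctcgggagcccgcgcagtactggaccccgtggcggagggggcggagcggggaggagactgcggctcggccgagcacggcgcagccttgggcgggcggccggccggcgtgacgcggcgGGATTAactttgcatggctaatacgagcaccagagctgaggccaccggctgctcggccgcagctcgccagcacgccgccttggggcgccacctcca

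The *Crx* window held the OTX2 and CRX core at 2 places, which 0.359% of the 32851 windows in the table did, and 7.06% held it at least once. Of the 15 windows of these factors 3 held that core, those of *Crx*, of *Thrb* and of the third *Otx2* start in the direction of transcription. The NRL and MAF element was in 4 of the 15, against 19.5% of all windows, the hexamer in 2, against 16.3%, and the E-box in 2, against 17.2%. The *Nr2e3* window held none of the 4 motifs and the *Nrl* window an E-box only. These matches describe the letters of a short window, and no binding was measured. The counts themselves were made by the authors on the older mm9 assembly, so the windows serve for identity and not for measurement.

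*Otx2* differed little between tumors. Its lowest, median and highest levels were 250.0, 321 and 356 CPM in the 6 GMYC tumors and 237, 327 and 378 CPM in the 8 GTML tumors. The models overlapped almost fully, at 316 ± 35.0 CPM (SD, n = 6) and 323 ± 48.6 CPM (SD, n = 8), and the highest of all 14 tumors was 1.59 times the lowest. Transcripts on the other strand cover 3.65% of its exon bases. The log2 fold change of GTML over GMYC was 0.03 (95% confidence interval -0.20 to 0.27, adjusted p = 0.849 by the quasi-likelihood test of edgeR).

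*Crx* ran from 344 to 429 CPM in GMYC tumors, with a median of 383 CPM, and from 97.6 to 404 CPM in GTML tumors, with a median of 359 CPM. GTML 2 alone made the lower end, since the next lowest GTML tumor had 298 CPM. GTML 2 held 27.2% of the mean of the other 7 GTML tumors for *Crx* and 70.8% for *Otx2*. The difference between the models was -0.24 ± 0.21 (log2, SE, adjusted p = 0.424) and -0.10 without GTML 2. Because the RNA is from bulk biopsies, fewer cells that transcribe a gene and less RNA per cell cannot be told apart in this or any result below. No protein-coding gene of at least 500 exon bases exceeded 1.27 counts per exon base in any tumor, and *Crx* reached 0.888 and *Otx2* 0.597. Whether levels in this range are compressed was not tested.

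*Nrl* varied more than *Otx2* and *Crx* within each model. Its lowest, median and highest levels were 5.80, 61.6 and 129 CPM in GMYC tumors and 18.7, 89.8 and 159.9 CPM in GTML tumors. GMYC 4 (5.80 CPM, 43 counts), GTML 2 (18.7 CPM) and GMYC 3 (23.6 CPM) were low, and the other 11 tumors had at least 51.8 CPM. The highest GMYC tumor held 22.2 times the lowest, against 1.25 times for *Crx*. The models overlapped, and the difference was 0.50 ± 0.51 (log2, SE, 95% confidence interval -0.58 to 1.58, adjusted p = 0.491). It was 0.26 without GMYC 4 and 0.83 without GMYC 6.

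*Nr2e3* had the widest range of the 10 factors. In GMYC tumors its lowest, median and highest levels were 0.404, 2.84 and 15.5 CPM, and GMYC 3 and GMYC 4, both low in *Nrl*, had 3 counts each, while GMYC 6, the GMYC tumor with the most *Nrl*, had 6 counts. In GTML tumors they were 3.10, 13.5 and 136 CPM, with GTML 3 at 136 CPM, GTML 8 at 33.5 CPM and the other 6 below 20 CPM. GTML 3 held 9.91 times the mean of the other 7 GTML tumors. The models overlapped, since GMYC 2 (15.5 CPM) was above GTML 2, 4, 6 and 7.

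The log2 fold change of *Nr2e3* was 2.63 ± 0.95 (SE, 95% confidence interval 0.62 to 4.63), the largest of the 10, with an unadjusted p of 0.0135 and an adjusted p of 0.0581. Without GTML 3 it was 1.55 (adjusted p = 0.159), and with both GTML 2 and 3 left out, an alternative chosen after the data were seen, it was 1.68 (adjusted p = 0.124). The lowest value, 1.09 (adjusted p = 0.443), came with the term for high or low Y-linked counts. This term was also chosen after the data were seen, and its value sets GTML 1, 4, 6 and 7 against the GMYC tumors. The tumors highest in *Nr2e3*, GTML 3 and 8, are both low in Y-linked counts and do not enter it. Without GMYC 2 the log2 fold change was 3.51 (adjusted p = 0.0258), and DESeq2 gave 2.65 (adjusted p = 0.0215). Within the tumors above the small nucleolar RNA split the value was 1.20 (adjusted p = 0.716) and within those below it 3.59 (adjusted p = 0.125).

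**Figure D1:**
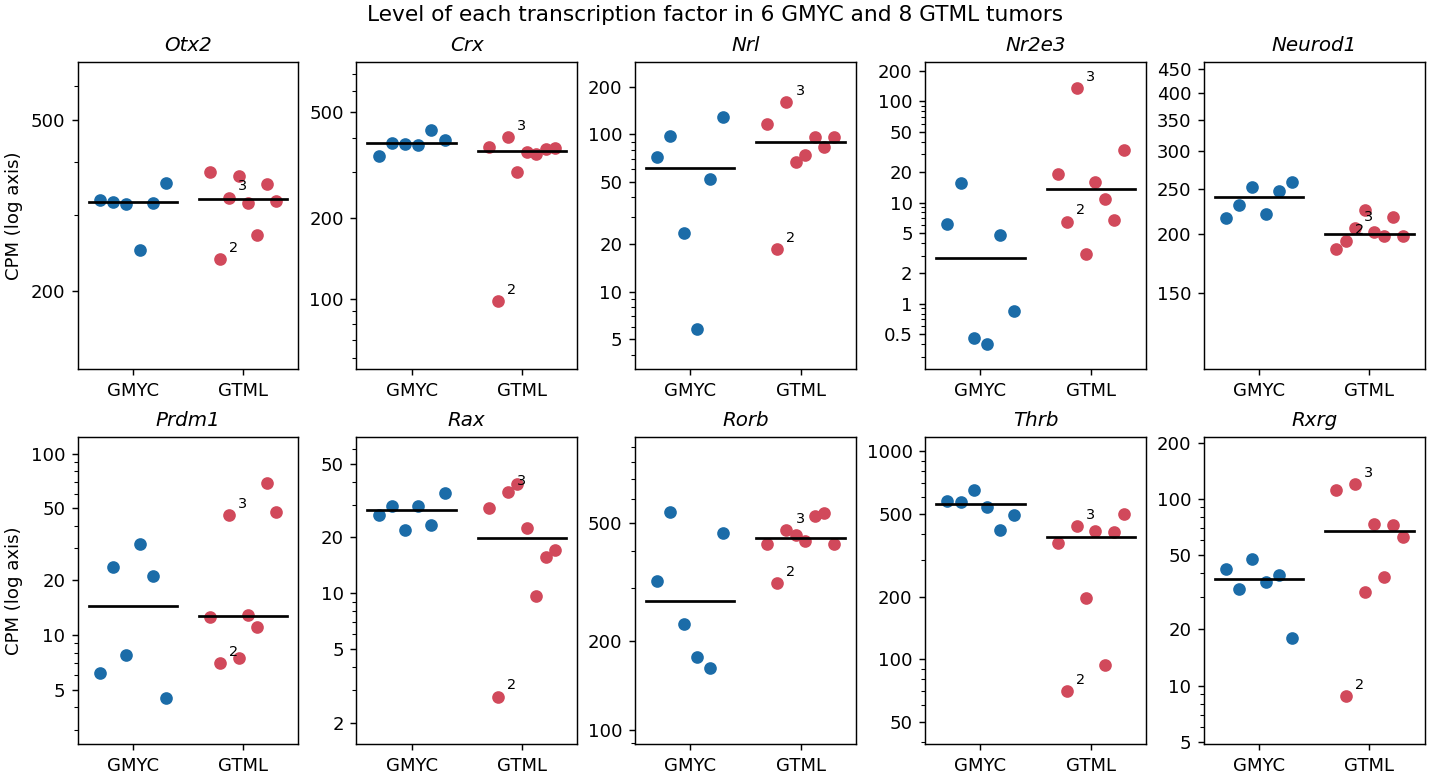
Level of each of the 10 transcription factors in CPM (log axis), with 1 point per tumor, 6 GMYC tumors in blue and 8 GTML tumors in red, and a bar at the median of each model. GTML tumors 2 and 3 are numbered, and the y axes differ between panels. GTML 2 is the lowest point for *Otx2*, *Crx*, *Rax*, *Thrb* and *Rxrg* and GTML 3 the highest for *Nr2e3* at 136 CPM.

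*Neurod1* was the most even of the 10 and the only one with an adjusted p under 0.05, which 21.2% of all genes tested had. It ranged from 217 to 258 CPM in GMYC tumors, with a median of 239 CPM, and from 186 to 225 CPM in GTML tumors, with a median of 200.4 CPM. GTML 4 (225 CPM) and GTML 7 (217 CPM) reached into the GMYC range. The means were 238 ± 17.3 CPM (SD, n = 6) and 203 ± 12.8 CPM (SD, n = 8), a log2 fold change of -0.23 ± 0.075 (SE, 95% confidence interval -0.38 to -0.07, adjusted p = 0.0426). The sign held in all 26 alternatives, the adjusted p was under 0.05 in 8 of them, and its range over them was 0.0269 to 0.431. Within the tumors above the small nucleolar RNA split the value was -0.27 (adjusted p = 0.431) and within those below it -0.29 (adjusted p = 0.105). *Neurod1* reached 0.669 counts per exon base, and 7.37% of its exon bases are shared with *Cerkl*, which was at 105 CPM in GMYC and 139 CPM in GTML tumors (log2 fold change 0.40, adjusted p = 0.193), so reads there could fall to either gene.

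*Prdm1* was high in a few tumors of each model. In GMYC tumors it ran from 4.52 to 31.9 CPM with a median of 14.5 CPM, and in GTML tumors from 6.99 to 68.8 CPM with a median of 12.7 CPM. GTML 7 (68.8 CPM), GTML 8 (47.5 CPM) and GTML 3 (45.9 CPM) exceeded every GMYC tumor, and the other 5 GTML tumors had at most 12.9 CPM. The fitted difference was 0.74 ± 0.60 (log2, SE, adjusted p = 0.373), while the median was higher in GMYC tumors. It was 0.39 without GTML 7 and -0.82 within the tumors above the small nucleolar RNA split (adjusted p = 0.659), so its direction is not settled.

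*Rax* was even in GMYC tumors, at 22.0, 28.0 and 34.8 CPM (lowest, median and highest), and spread from 2.76 to 38.9 CPM in GTML tumors, with a median of 19.8 CPM. GTML 2 (17 counts) and GTML 6 (9.70 CPM) were low, and GTML 4 and GTML 3 exceeded every GMYC tumor at 38.9 and 35.3 CPM. The difference was -0.37 ± 0.39 (log2, SE, adjusted p = 0.506) and -0.20 without GTML 2. An antisense transcript, *Raxos1*, covers 27.4% of the *Rax* exon bases, and without a statement on strand in the counting the reads of the pair cannot be told apart.

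*Rorb*, the retinoid-related orphan receptor, was evenly high in GTML tumors and uneven in GMYC tumors. It ran from 161 to 541 CPM in GMYC tumors, with a median of 272 CPM, and from 312 to 537 CPM in GTML tumors, with a median of 443 CPM. GMYC 3, 4 and 5, at 227, 176 and 161 CPM, lay below every GTML tumor, but GMYC 2 had the most of all 14. The difference was 0.51 ± 0.24 (log2, SE, 95% confidence interval -0.0026 to 1.03, adjusted p = 0.134). Without GMYC 2 it was 0.73 (adjusted p = 0.0374).

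*Thrb* went the other way. It ranged from 417 to 652 CPM in GMYC tumors, with a median of 555 CPM, and from 70.4 to 496 CPM in GTML tumors, with a median of 386 CPM. GTML 2 (70.4 CPM), GTML 6 (93.5 CPM) and GTML 4 (197 CPM) were low, and of the other 5 GTML tumors, at 363 to 496 CPM, GTML 3 and 8 exceeded the lowest GMYC tumor. The means were 541 ± 79.9 CPM (SD, n = 6) and 309.7 ± 165 CPM (SD, n = 8), and the log2 fold change was -0.80 ± 0.35 (SE, 95% confidence interval -1.55 to -0.05), with an unadjusted p of 0.0372 and an adjusted p of 0.109. Without GTML 2 it was -0.65 (adjusted p = 0.0880), and limma-voom on all tumors gave -1.08 (adjusted p = 0.0420).

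*Rxrg*, a partner of THRB in the control of cone opsins, exceeded the whole GMYC range in 5 of the 8 GTML tumors. Its lowest, median and highest levels were 18.0, 37.3 and 47.7 CPM in GMYC tumors and 8.78, 67.2 and 119 CPM in GTML tumors. These were GTML 1, 3, 5, 7 and 8, at 62.4 to 119 CPM, while GTML 4 and 6 fell within the GMYC range, and GTML 2 was the lowest of all. The log2 fold change was 0.85 ± 0.42 (SE, 95% confidence interval -0.03 to 1.73, adjusted p = 0.146). Without GTML 2 it was 1.02 ± 0.30 (SE, adjusted p = 0.0206), still outside the threshold of 0.01, and with both GTML 2 and 3 left out it was 0.86 (adjusted p = 0.0382). Beside these receptors the broadly expressed relatives *Thra* and *Rxra* had log2 fold changes of 0.47 (adjusted p = 0.106) and 0.72 (adjusted p = 0.0169).

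**Figure D2:**
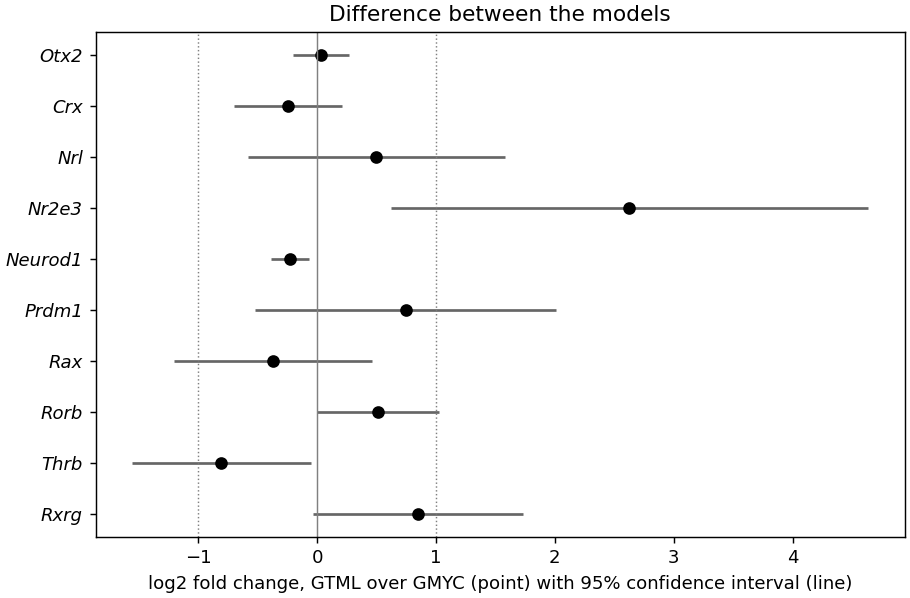
Log2 fold change of GTML over GMYC for the 10 transcription factors (points) with the 95% confidence interval from edgeR (lines), and dotted lines at 1 and -1. *Nr2e3* is farthest from 0 at 2.63, and the intervals of *Nr2e3*, *Neurod1* and *Thrb* leave out 0 before adjustment for the number of genes.

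Between the models, then, edgeR called 0 of the 10 factors, and DESeq2 and limma-voom also called 0. At an unadjusted p under 0.05 there were 3 of 10, *Nr2e3* higher in GTML and *Neurod1* and *Thrb* lower, a share below the 37.8% of all genes tested. No factor had GMYC and GTML levels that did not overlap, which 4.62% of all genes tested had. The median log2 fold change was 0.27 over the 10 factors, 6 positive and 4 negative, against 0.04 over all genes. The 95% intervals of *Otx2*, *Crx* and *Neurod1* lie within 1 on the log2 scale in either direction, and those of the other 7 factors do not.

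Read by tumor in place of by gene, GTML 2 was the lowest of all 14 tumors for 5 of the 10 factors, *Otx2*, *Crx*, *Rax*, *Thrb* and *Rxrg*, and the lowest GTML tumor for 8. Its share of the mean of the other 7 GTML tumors was 11.5% for *Rax*, 12.1% for *Rxrg*, 18.9% for *Nrl*, 20.1% for *Nr2e3*, 20.5% for *Thrb*, 23.7% for *Prdm1* and 27.2% for *Crx*. For *Otx2*, *Rorb* and *Neurod1* it was 70.8%, 66.8% and 94.6%. *Nrl*, *Thrb* and *Rxrg* were thus lowest of the model in that tumor, while *Neurod1* and *Nr2e3* were within its range. The share for *Nr2e3* reflects the 136 CPM of GTML 3 in the mean of the others, since GTML 2 (6.51 CPM) was above GTML 4 (3.10 CPM). The summed outer segment and visual cycle genes were also lowest there, at 572 CPM against at least 1286 CPM in every other tumor. GTML 3 was the highest of all 14 tumors for 3 factors, *Nrl*, *Nr2e3* and *Rxrg*, and held 2.03 times, 9.91 times and 2.10 times the mean of the other 7 GTML tumors for them.

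GMYC 4 was the lowest of all for *Nrl* and *Nr2e3* and the lowest GMYC tumor for *Otx2*, yet had the most *Prdm1* of its model. Within GMYC tumors the rod pair did not always go together, since GMYC 6 had 129 CPM of *Nrl* and 0.848 CPM of *Nr2e3*, and GMYC 2 had 97.1 CPM and 15.5 CPM. Over the 14 tumors Pearson's r of log2 CPM was 0.65 between *Nrl* and *Nr2e3* and 0.75 between *Nrl* and *Rorb*, and 0.70 and 0.77 without GTML 2. The pair *Crx* and *Rax* had the highest r, 0.82, which was 0.04 without GTML 2, so it described that tumor. *Nr2e3* and *Neurod1* had the lowest, -0.64, and -0.68 without GTML 2. These r values describe 14 tumors of 2 models that share library properties and carry no p.

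**Figure D3:**
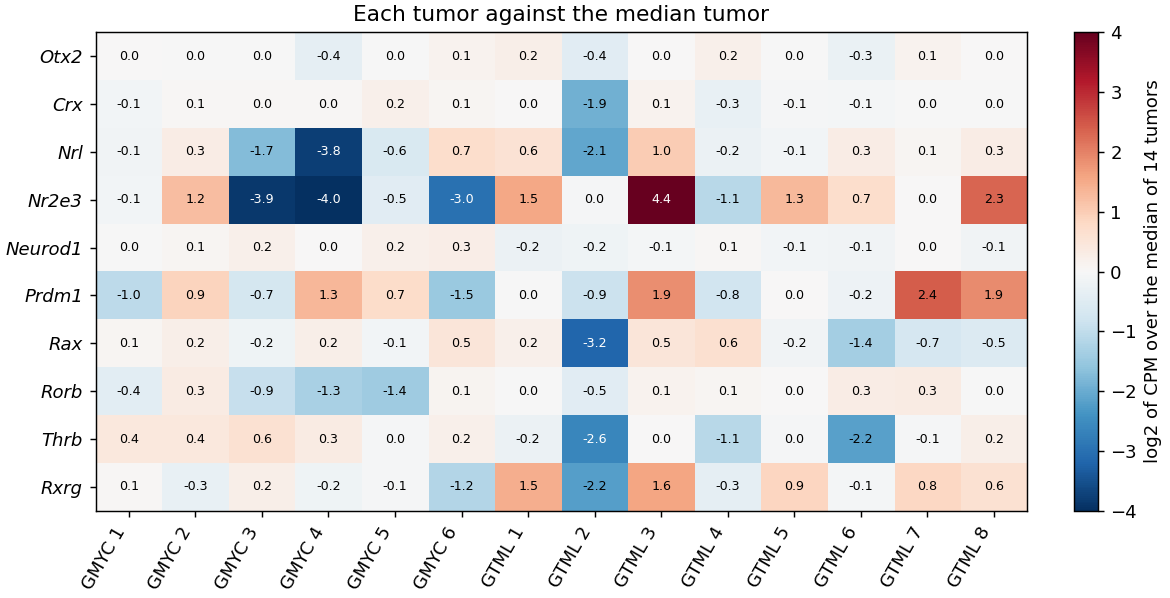
Level of each of the 10 transcription factors (rows) in each of 14 tumors (columns), as log2 of CPM over the median of all 14, with red above and blue below the median and colors saturating at 4 and -4. The column of GTML 2 is at -1.9 for *Crx*, -3.2 for *Rax* and -2.6 for *Thrb*, and GTML 3 is at 4.4 for *Nr2e3*.

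Levels of different genes were compared per exon length. Mean levels over the 14 tumors, as CPM per kb of exon, were 111 ± 25.0 for *Crx*, 79.9 ± 8.31 for *Neurod1* and 75.8 ± 9.94 for *Otx2* (SD, n = 14). *Thrb* followed at 55.2 ± 23.9, *Rorb* at 35.2 ± 11.7, *Rxrg* at 22.8 ± 14.1 and *Nrl* at 13.7 ± 7.62. *Nr2e3* was at 5.53 ± 10.4, *Rax* at 4.11 ± 1.73 and *Prdm1* at 3.95 ± 3.52. Neighbors were in this order in 13 of 14 tumors for *Crx* over *Neurod1*, the exception being GTML 2, and in 13 of 14 for *Nrl* over *Nr2e3*, the exception being GTML 3. *Neurod1* exceeded *Otx2* in 8 of 14 tumors, *Rax* exceeded *Prdm1* in 8 and *Nr2e3* exceeded *Rax* in 6, so these neighbors did not differ beyond their spread. *Otx2* over *Thrb* and *Rorb* over *Rxrg* held in 10 of 14 tumors and *Thrb* over *Rorb* and *Rxrg* over *Nrl* in 11, and in each of these 4 pairs the mean log2 difference, 0.52 to 0.82, was smaller than its SD over tumors, 0.91 to 1.26. With the longest transcript in place of all exons, *Otx2* (123) came before *Crx* (120.3) and *Neurod1*, and *Rax* came before *Nr2e3*, so the order at the top depends on the exon model.

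**Figure D4:**
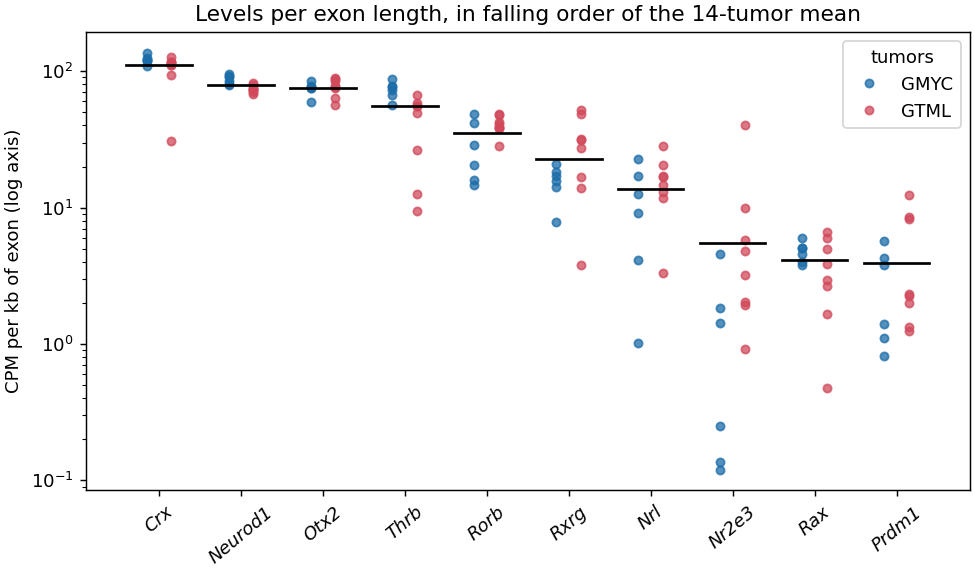
Levels per exon length, in CPM per kb of exon (log axis), with 1 point per tumor (GMYC blue, GTML red) and a bar at the mean of the 14 tumors, in falling order. *Crx* leads at a mean of 111 and *Prdm1* is last at 3.95.

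The other transcription regulators of photoreceptors and retina were followed in a list of 45 genes, of which 44 were in the table and 40 were tested. A single one passed the thresholds, *Neurog2*, a proneural bHLH gene, which rose by 3.86 ± 0.84 (log2, SE, adjusted p = 0.00831) from at most 0.644 CPM in GMYC to between 0.764 and 11.3 CPM in GTML tumors. *Neurog2* was near the floor in GMYC tumors and passed the filter on low counts through GTML tumors alone. Its adjusted p was above 0.01 in 10 of 14 fits that each left out 1 tumor (0.0103 without GTML 3, at most 0.0238) and 0.0204 with the term for Y-linked counts. *Isl1*, a LIM homeodomain factor of bipolar and ganglion cells, had -3.40 (adjusted p = 0.0165), and this pair had the largest changes of the list. The median was 0.36. At an adjusted p under 0.05 there were 4 higher and 2 lower in GTML tumors, so 6 of 40 genes, beside the 21.2% of all genes tested.

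Rod genes encode the phototransduction proteins that NRL, NR2E3 and CRX are known to drive, and their median log2 fold change was 1.74. Of 17 rod genes tested, 1 passed the thresholds, *Cngb1*, a subunit of the rod channel, with a fitted change of 4.31 ± 0.72 (log2, SE, adjusted p = 0.00288). It had 0.306 to 0.574 CPM in GMYC tumors and 1.46 to 36.6 CPM in GTML tumors. The models did not overlap, but its GMYC level was near the floor and it passed the filter on low counts through GTML tumors alone. *Gnat1*, rod transducin, had 5.59 (adjusted p = 0.0121), *Rcvrn*, recoverin, 4.76 (adjusted p = 0.0146) and *Pde6a*, a phosphodiesterase subunit, 4.56 (adjusted p = 0.0193), the largest of the list. In all 9 of the 17 were at an adjusted p under 0.05, each higher in GTML tumors, beside 21.2% of all genes tested, and limma-voom had 2. DESeq2 called 8 and limma-voom 1, where over all genes they called 1891 and 849, against 676 (3.22%) with edgeR. With the term for Y-linked counts 0 passed (*Cngb1* at 3.20, adjusted p = 0.0130), 2 were at an adjusted p under 0.05 and the median was 0.99, and without GMYC 3 the adjusted p of *Cngb1* was 0.0105. Without GTML 3, 1 passed, 7 were at an adjusted p under 0.05 and the median was 1.56, and *Gnat1* was at 3.60 (adjusted p = 0.0146). Without GTML 2, 7 passed. Over all genes 1624 were called without GTML 2, 439 without GTML 3 and 83 with the term for Y-linked counts. GTML 3 was the highest of the 14 tumors for 15 of the 17 rod genes, and summed rod genes were at 2532 CPM in GTML 3, at 415 to 1134 CPM in the other GTML tumors and at 612 to 877 CPM in GMYC tumors.

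Of 12 cone genes tested, 0 passed the thresholds with edgeR, DESeq2 or limma-voom, and at an unadjusted p under 0.05 there were 3 higher and 1 lower in GTML tumors, beside the 37.8% of all genes tested. *Pde6h*, a cone phosphodiesterase subunit, had -2.37 (adjusted p = 0.0581), *Cnga3*, a cone channel subunit, 2.22 (adjusted p = 0.0766) and *Pde6c*, the cone phosphodiesterase, 2.14 (adjusted p = 0.0394). The median was 0.39, and -0.10 without GTML 3. Of 20 outer segment and visual cycle genes, 2 passed, beside 3.22% of all genes tested. Both rose in GTML tumors, *Gucy2f*, a guanylate cyclase (4.04, adjusted p = 0.00477), and *Fscn2*, a retinal fascin (1.55, adjusted p = 0.00971). DESeq2 called 7 of the 20 and limma-voom 0, and with the term for Y-linked counts 0 passed, where over all genes 1891, 849 and 83 were called. In fits that each left out 1 tumor, the call was lost in 3 of 14 for *Gucy2f* and in 13 of 14 for *Fscn2*, which kept it without GTML 2. The largest changes beside *Gucy2f* were those of *Impg1*, a matrix proteoglycan (4.59, adjusted p = 0.0116), and *Rp1*, a microtubule protein of the outer segment (2.33, adjusted p = 0.0578), and the median of the list was 1.12. In GMYC tumors *Impg1*, *Gucy2f* and *Fscn2* were at most 0.563, 1.98 and 2.70 CPM, respectively, and *Impg1* passed the filter on low counts through GTML tumors alone. Without GTML 3, 1 of the 20 passed and the median was 0.71, and without GTML 2, 6 passed, beside 439 and 1624 genes called over all genes. GTML 3 was the highest tumor for 9 of 13 cone and 18 of 20 outer segment genes.

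**Figure D5:**
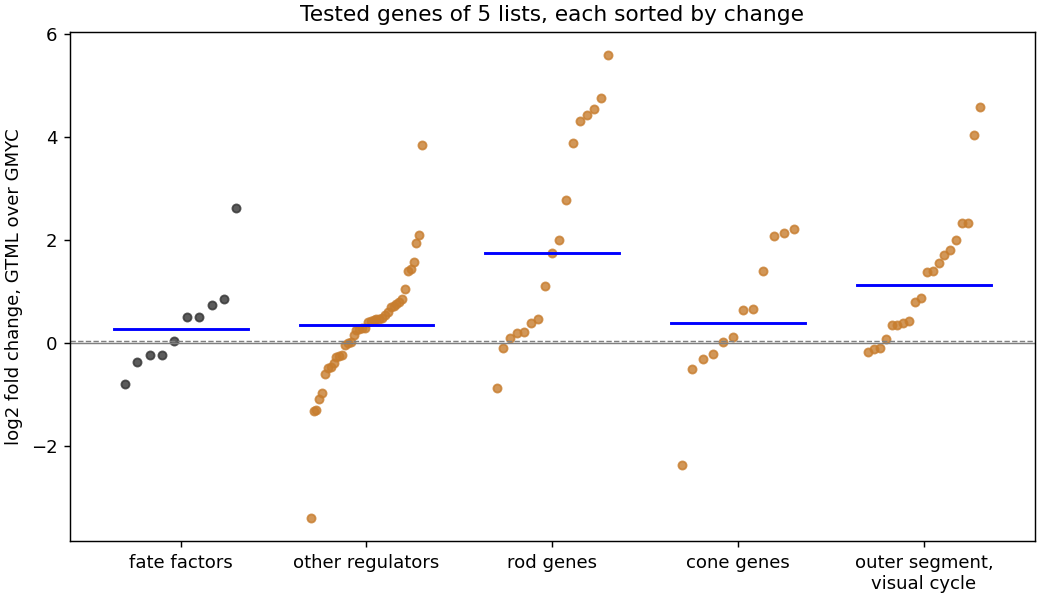
Log2 fold change of GTML over GMYC for the tested genes of 5 lists (points, sorted within each list), with a blue bar at the median of the list and a dashed line at the median of all genes tested, 0.04. The medians are 0.27 for the fate factors, 0.36 for the other regulators, 1.74 for rod genes, 0.39 for cone genes and 1.12 for outer segment and visual cycle genes.

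*Otx2*, *Crx* and *Neurod1* are also expressed outside the retina, and markers of such tissues were read beside them. For the pineal gland, summed markers ran from 13.5 to 47.7 CPM in GMYC and from 12.04 to 264 CPM in GTML tumors, highest in GTML 3, and *Aanat*, its melatonin enzyme, was at most 3.51 CPM in any tumor. *Chrna3* (2.83, adjusted p = 0.0637), *Tph1* (2.78, adjusted p = 0.0205) and *Aanat* (0.41, adjusted p = 0.543) had the largest log2 fold changes of the 4 tested, and 0 passed, beside 3.22% of all genes tested. For the choroid plexus, another OTX2-positive tissue, the sums were 18.8 to 39.2 and 33.0 to 148 CPM, *Ttr* was at most 1.68 CPM, and 0 of 6 passed, with *Slc4a5* at 1.85 (adjusted p = 0.0113), *Aqp1* at 1.04 (adjusted p = 0.127) and *Kcnj13* at 0.58 (adjusted p = 0.122). For the retinal pigment epithelium the sums were 17.0 to 32.2 and 28.7 to 44.4 CPM and *Rpe65* was at most 0.270 CPM. *Tyrp1* passed there (3.07, adjusted p = 0.00134, from at most 1.61 CPM in GMYC tumors), and *Best1* had 0.86 (adjusted p = 0.130) and *Pmel* 0.55 (adjusted p = 0.511). Other genes of these lists were higher, with up to 90.6 CPM of *Tph1*, 148 CPM of *Chrna3*, 129 CPM of *Slc4a5*, 21.5 CPM of *Aqp1* and 31.1 CPM of *Mitf*. *Gngt1*, at up to 44.9 CPM, is counted in both the pineal and the rod list. The part of these tissues in the levels of the 10 factors was not tested.

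Cerebellar granule neuron markers, beside which *Neurod1* is read, summed to 150.3 to 497 CPM in GMYC tumors, highest in GMYC 1, and 55.1 to 396 CPM in GTML tumors. The largest GTML means were those of *Pax6* (151 CPM, also in the list of other regulators), *Zic2* (73.9 CPM) and *Rbfox3* (39.3 CPM). *Fat2*, *Cbln3*, *Gabra6* and *Atoh1* had GTML means of 2.01, 1.19, 0.249 and 0.0838 CPM and GMYC medians of 0.494, 0.907, 0 and 0.0718 CPM. Of the 8 markers tested 1 passed the thresholds, beside 3.22% of all genes tested. *Barhl1* passed and rose in GTML tumors (1.63, adjusted p = 0.00937), a call lost in 13 of 14 fits that each left out 1 tumor (adjusted p = 0.0115 without GTML 3) and kept without GTML 2, and *Fat2* (-3.96, adjusted p = 0.0406) and *Cbln3* (-3.39, adjusted p = 0.0350) had the largest changes, which were -0.93 (adjusted p = 0.541) and -1.16 (adjusted p = 0.345) without GMYC 1. *Neurod1* was lowest of its model in GMYC 1, at 217 CPM. The part of granule neurons in the level of *Neurod1* was not tested.

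The remaining lists hold markers of other cell types of the cerebellum and of SHH signaling. Purkinje cell markers had *Calb1* (-2.37, adjusted p = 0.0617), *Car8* (-1.89, adjusted p = 0.0571) and *Gad1* (-0.91, adjusted p = 0.534), with 0 of 5 passed. Astrocyte markers had *Aqp4* (-1.22, adjusted p = 0.0975), *Slc1a3* (-0.95, adjusted p = 0.0740) and *S100b* (-0.91, adjusted p = 0.160), with 0 of 7. Oligodendrocyte lineage markers had *Olig2* (-2.35, adjusted p = 0.0311), *Mog* (1.56, adjusted p = 0.0104) and *Olig1* (-1.50, adjusted p = 0.0312), with 0 of 8. Microglia markers had *C1qb* (-0.40, adjusted p = 0.248), *C1qa* (-0.32, adjusted p = 0.309) and *Aif1* (-0.32, adjusted p = 0.493), with 0 of 7. DESeq2 called 2 oligodendrocyte genes (1 in each direction), 1 choroid plexus and 1 pineal gland gene, limma-voom 1 oligodendrocyte and 1 pineal gland gene, and neither tool any Purkinje, astrocyte or microglia gene. In the granule neuron list DESeq2 called 1 gene in each direction and limma-voom 1, higher in GTML tumors. Both tools called 1 retinal pigment epithelium gene, and DESeq2 alone 1 SHH target. Over all 21024 genes tested, edgeR called 676 (3.22%), DESeq2 1891 and limma-voom 849. Among 6 SHH pathway targets *Sfrp1* rose in GTML tumors (2.77, adjusted p = 0.00632), from at most 1.21 CPM in GMYC tumors. *Gli1* was at 1.92 (adjusted p = 0.0370), or 1.20 (adjusted p = 0.0531) without GTML 2, and *Hhip* at -1.33 (adjusted p = 0.0770). Leaving out single tumors ended the call of *Sfrp1* in 7 of 14 cases. The log2 fold change of all 7 astrocyte markers (median -0.85) and of all 5 Purkinje cell markers (median -0.91) was negative, and their part in the levels of the 10 factors was not tested.

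The genes most alike to each factor across the 14 tumors were taken as the 3 protein-coding genes, of 15332, with the highest Pearson's r of log2 CPM. For *Thrb* they were *Pgc* (0.96), *Tfeb* (0.94) and *Slc37a4* (0.89), and for *Rorb* *Npdc1* (0.94), *Slc16a13* (0.93) and *Gm5141* (0.93), and these stayed at 0.83 or more without GTML 2. For *Nrl* they were *Npepl1* (0.92), *Carmil3* (0.87) and *Atp9b* (0.86), for *Nr2e3* *Krt15* (0.91), *Maob* (0.89) and *Camk1* (0.87), and for *Neurod1* *Raly* (0.91), *Scd1* (0.90) and *Lsm14a* (0.90). *Prdm1* was most alike to *Zfp36l3* (0.83), *Lrriq1* (0.83) and *Tnik* (0.82), *Rxrg* to *Ccdc13* (0.92), *Podxl2* (0.92) and *Gm14137* (0.91), and *Otx2* to *Azin2* (0.88), *Efs* (0.87) and *BC034090* (0.86). The likeness of *Crx* to *Fhod3* (0.95), *Tln2* (0.94) and *Ogdhl* (0.93) rested on GTML 2, without which it was 0.57, 0.44 and 0.72. *Rax* had *Esrrg* (0.93), *Pitpnm1* (0.93) and *Platr17* (0.91), which were 0.76, 0.76 and 0.68 without GTML 2. The highest of 15332 values are high by selection, and no test was made on them.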

How the data were processed

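The paper states that RNA of the 6 GMYC tumor biopsies was sequenced on the Ion Proton. It describes the RNA data of the 8 GTML tumors as similarly generated and cites an earlier study for them. Its methods also name new GTML tumors beside the earlier ones, without stating which of the 8 are new. Which tumors were sequenced together is not stated in the sources used here, so model and sequencing run cannot be told apart. The authors aligned the reads to mm9 with STAR and then Bowtie, assigned them to GENCODE genes with featureCounts, and deposited the raw counts of 37310 genes. The labels' processing notes name STAR 2.4.0, Bowtie2 2.2 and Subread 1.5.2. Strand handling in the counting is not given in the sources used here. Symbols and exon lengths came from GENCODE vM21 (GRCm38) by Ensembl identifier, for 32620 genes (87.4%). A further 18 columns of counts from a separate table match no label and were not used, so the cell line and Arf knockout comparisons were not run.

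Genes above 1 CPM in 3 or more tumors were normalized by TMM and compared with edgeR 4.0.16 in R 4.3.3 (quasi-likelihood test, all 14 tumors, Benjamini-Hochberg over 21024 genes). DESeq2 1.42.0 (74 genes without an adjusted p), limma-voom (limma 3.58.1), other filters, the replicate block, leaving out each tumor, the small nucleolar RNA split and protein-coding genes only were the alternatives. A term for Y-linked counts and leaving out GTML 2 and 3 together were chosen after the data were seen. The term was a split into high and low Y-linked counts, with every GMYC tumor in the high group. Log2 CPM for correlations used a prior count of 2. Total counts of 4602294 to 7279811 per tumor set the precision of low genes. The code was tested on simulated counts. Every pair of tumors of a model differed by more than sampling noise (chi-square per degree of freedom at least 6.21 over 43 pairs). Plots were made in Python 3.11.15 with matplotlib 3.10.9.

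The 10 factors and all gene lists and motifs were chosen with earlier results of these data known. Named genes were the 10 factors, the 3 tested genes of largest absolute change in each list (1 of them is not reported here) and the 3 genes most alike to each factor. *Cngb1* and *Fscn2* (past the thresholds), *Mitf*, *Ttr*, *Rpe65*, *Thra*, *Rxra*, *Cerkl*, *Raxos1*, *Gngt1*, *Pax6*, *Zic2*, *Rbfox3*, *Gabra6* and *Atoh1* fall outside this rule and were chosen after their values were seen.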

Additional observations from a re-analysis of the deposited data

Results flagged for a closer look

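A tumor was picked out when its gap to the next, divided by the range of its model, exceeded Dixon's limit for the number of tumors. Of 46 groups looked at, 10 did so, where independent, normally distributed groups would give about 1 in 20, or 2.3. The limit was applied to CPM without a log and the groups share tumors and some genes, so these counts do not test for an excess. Among the 20 groups of the 10 factors there were 3. *Crx* in GTML tumors had a gap of 0.654 of the range, with GTML 2 at 97.6 CPM and the next at 298 CPM. *Nr2e3* in GTML tumors had 0.772, with GTML 3 at 136 CPM and the next at 33.5 CPM. *Otx2* in GMYC tumors had 0.650, with GMYC 4 at 250.0 CPM and the next at 319 CPM. GTML 3 was also the high end for the summed rod genes (0.661), cone genes (0.575), outer segment and visual cycle genes (0.532) and pineal gland markers (0.581). GMYC 1 was the high end for granule neuron markers (0.780, 497 CPM), GTML 6 for Purkinje cell markers (0.590, 50.2 CPM), and GMYC 2 the low end for oligodendrocyte markers (0.669, 114 CPM). GTML 6 was also among the low tumors for *Thrb* and *Rax*. No cause was tested.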

How the results depend on the processing

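Precision was limited by 6 and 8 tumors and by low counts for *Nr2e3*. None of the 10 factors was called under any of the 26 alternatives. The number with an adjusted p under 0.05, 1 in the analysis reported, was 2 with DESeq2 and with limma-voom, 0 without a filter on low counts, with filterByExpr, within either side of the small nucleolar RNA split, with a term for Y-linked counts and with the replicate block, and 0 to 3 when 1 tumor was left out. It was 3 without GTML 2 (*Neurod1*, *Nr2e3* and *Rxrg*), 2 without GMYC 2 or GTML 4, and 1 without GMYC 4.

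Over all genes, 676 were called in either direction. This count was 1891 with DESeq2, 418 without a filter, 370 for protein-coding genes only, 296 with a small nucleolar RNA term, 2 above and 127 below that split, 83 with a term for Y-linked counts, 1198 without GTML 2 and 3, and 114 (without GMYC 3) to 1624 (without GTML 2) when 1 tumor was left out. With the replicate block it was 3, but the numbers 1 to 6 do not pair the tumors (correlation of deviations from -0.21 to 0.24), so they share only a number. The cause of these shifts was not tested.

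Of the 10 factors, *Otx2* and *Prdm1* changed sign in some alternatives, in 5 and 1 of 26, without a call. Reversals among the listed genes were *Best1* above the split (-0.10), and *Fat2* (2.38) and *Cbln3* (0.25) below it.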
